A study of Homo sapiens with 21 samples.

Results

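HCC4006P1 and HCC4006P2 are 2 stocks of HCC4006, an established human lung adenocarcinoma cell line that carries an activating EGFR mutation, and their untreated cultures were compared here by RNA sequencing. The comparison takes 3 of the 21 libraries of the series by cell line label, namely replicates 1 and 2 of HCC4006P1 and the single library of HCC4006P2. Both stocks are labelled sensitive with no drug, were grown in the same RPMI medium with serum, and are bulk cultures whose passage history is not given in the sources used here. HCC4006ER (2 libraries, resistant to erlotinib) was derived from HCC4006P1 and HCC4006GR (1 library, resistant to gefitinib) from HCC4006P2. These and HCC827P, the 1 library of a parental EGFR-mutant lung line of another origin, serve for comparison. The labels credit HCC4006P1 and HCC4006ER to another source study than HCC4006P2 and HCC4006GR, and the count files of these pairs differ in format, so that stock, source and handling cannot be told apart.

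Stocks of a cancer cell line that are kept apart can come to differ in copy number, in chromatin state and in the balance of subpopulations. In lung adenocarcinoma, the lineage factor NKX2-1 (also called TTF-1) maintains genes of the alveolar and airway epithelium, such as surfactant proteins, the phosphate transporter SLC34A2 and the protease NAPSA, while mucins are secreted by airway epithelium. Inhibitors of EGFR act on signalling that such cells depend on, and a shift from an epithelial towards a mesenchymal state is a known route of escape.

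The stocks differed widely. Genes called in the text had an adjusted p under 0.05 in the quasi-likelihood test of edgeR, and differences are log2 values of HCC4006P1 minus HCC4006P2. Of 14234 genes tested over the part of the genome that all libraries cover, 4312 (30.3%) were called, 2213 higher in HCC4006P1 (15.5%) and 2099 lower (14.7%). The larger differences lay on the side of HCC4006P2, with at least 2-fold differences called for 1578 genes lower in HCC4006P1 and 1154 higher. With library totals alone as the scale, the median difference moved from 0.03 to -0.14 and the calls became 1495 higher and 2408 lower. HCC4006P2 has 1 library and was assumed to vary like the replicated lines, and p-values measure only the spread between these libraries, which may be technical. In all, 2303 of the 4312 calls held in the same direction under each of 10 alternative analyses.

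The size of the difference is best seen between pairs of libraries. CPM, the unit used throughout, gives a gene's counts relative to the library's own total over the commonly covered genes, on the usual per-million scale. Replicates 1 and 2 of HCC4006P1 differed more than 2-fold in 190 of 9586 expressed genes (1.98%), and the 2 libraries of HCC4006ER in 1 of 9705 (0.01%). Against HCC4006P2 the share was 17.73% for replicate 1 and 22.98% for replicate 2 of HCC4006P1. For replicate 2 against the erlotinib-resistant line derived from the same stock it was 24.8%, and for HCC4006P2 against its own gefitinib-resistant derivative 17.08%. Against HCC827P it was 32.75% for replicate 2 of HCC4006P1 and 35.21% for HCC4006P2. The stocks thus stood apart by about as many genes as a parental stock and its resistant derivative, and by fewer than either stock and the other lung line, although no test was made of these shares.

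Counts on genes were 18713124 and 19498932 in HCC4006P1 and 13608332 in HCC4006P2, and a floor of 3 counts corresponded to 0.165, 0.194 and 0.274 CPM. Replicate 1 of HCC4006P1 has a total of 1 count from GARS1 on chromosome 7 onwards (start 30620149 in hg19) and over chromosomes 8, 9 and X, and replicate 2 alone stands for the stock there. Replicates 1 and 2 of HCC4006P1 differed beyond counting error, since their chi-square statistic divided by its degrees of freedom was 21.5, against 4.06 for HCC4006ER. Reads outside annotated genes made up 7.80% to 9.83% of HCC4006P1 and 13.8% of HCC4006P2. The methods name a 3′ end kit beside the stranded kit that the labels give. From the shortest to the longest quartile of exon length, the median stock difference went from 0.11 to -0.03, and the median difference between replicates 1 and 2 of HCC4006P1 from 0.01 to 0.15.

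Both stocks expressed general epithelial markers, while lung markers of the same list differed. Of 10 markers of airway and alveolar epithelium, 3 were called higher in HCC4006P1 and 3 lower. The lower ones were NKX2-1, NAPSA and SFTPB, whose values are given below. CDH1 (E-cadherin) had 549 and 610 CPM in HCC4006P1 and 599 CPM in HCC4006P2, and EPCAM had 487, 464 and 428 CPM. KRT7, a keratin of simple lung epithelium, had 2307, 2398 and 2081 CPM. None of these 3 genes was called, with differences of 0.13, 0.33 and 0.36. Fitted differences include a further scaling between libraries (TMM) that CPM lacks. Small ones can therefore depart in size and sign from the CPM beside them. EGFR, past the point where replicate 1 stops, had 1303 CPM in replicate 2 and 1197 CPM in HCC4006P2, a difference of 0.37 that was called there but missed the threshold with DESeq2, with library totals and with all libraries (adjusted p = 0.0631, 0.315 and 0.12). KRT8 and KRT18, the keratin pair of simple epithelia, were both higher in HCC4006P1 by 2.16. Of the markers of other cell types, the 8 fibroblast markers summed to 20 to 36.8 CPM in the 3 libraries with DCN at 0 in each, CD3E, CD2 and MS4A1 were at 0, and the 6 hepatocyte markers summed to at most 0.0549 CPM. The 8 immune markers summed to 145 and 120 CPM in HCC4006P1 and 85.4 CPM in HCC4006P2, most of it CD68, a lysosomal protein that epithelial cells also make. The 5 endothelial markers summed to 8.997 and 7.35 against 31.2 CPM, of which KDR, a VEGF receptor, made up 29.5 CPM in HCC4006P2 (0.384 and 0.452 in HCC4006P1, called), while CDH5 was at 0.219 CPM or less. ESAM, of the same list, went the other way and was called higher in HCC4006P1, by 3.52. The 5 squamous and basal markers summed to 3.84 and 1.68 against 21.9 CPM, of which TP63 made up 21.6 CPM (called), with KRT5 and KRT14 at 0 in all 3 libraries. The part of these differences in the results was not tested.

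Lung lineage genes were lower in HCC4006P1. Of 23 members tested, 14 were called lower and 1 higher, with a median difference of -2.10 against 0.03 over all genes. The most abundant was SLC34A2, the sodium-dependent phosphate transporter of alveolar type II cells on chromosome 4 (25649633 to 25680370 in hg19), with 0.0549 and 0 CPM in HCC4006P1 and 3833 CPM in HCC4006P2. A single count in HCC4006P1 stood against 41948 in HCC4006P2, a ratio of 129000 (95% exact counting interval 23200 to 5110000). NKX2-1, on chromosome 14 (36985597 to 36990354), had 0.165 and 0 CPM in HCC4006P1 and 140 CPM in HCC4006P2. Its ratio of 1580 (538 to 7650) rests on 3 counts in HCC4006P1, and the call held with edgeR (adjusted p = 3.57e-05) but missed the threshold with DESeq2 (adjusted p = 0.0762). HCC827P had 76.2 CPM of NKX2-1, so that of these 3 parental stocks HCC4006P1 alone was near 0 for this gene. Summed over all 26 members of the list, HCC827P had 3381 CPM. That lay close to HCC4006P1 (3293 and 3198 CPM) and below HCC4006P2 (17790 CPM), so a low sum was not particular to HCC4006P1.

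Further members of the lineage followed the same order. NAPSA, the aspartic protease that processes surfactant protein B, had 0.165 and 0.0645 CPM against 178 CPM. SFTA3, the neighbour of NKX2-1, had 0.0549 and 0 against 37.4 CPM, and HOPX, a homeodomain protein of alveolar type I cells, 0 and 0.0645 against 43.5 CPM. SCGB3A1, a secretoglobin of the airways, was at 0 in both HCC4006P1 libraries and at 63.4 CPM in HCC4006P2, at least 354-fold lower. Surfactant protein B itself (SFTPB) was low in both stocks, with 0.329 and 0.194 against 12.6 CPM. FOXA1, a pioneer factor of lung endoderm, was reduced rather than lost, with 50.4 and 41.6 against 197 CPM (difference -1.93). LPCAT1, which makes surfactant lipid, went from 1548 CPM in HCC4006P2 to 345 and 323 CPM. The single member higher in HCC4006P1 was GATA6, with 5.21 and 6.77 against 1.92 CPM. The alternatives kept 12 to 14 of the 14 lower calls in number, DESeq2 the fewest. SFTPA2 and the CEACAM, HLA-DRB, MAGE and metallothionein genes have close copies, among which reads could have been split. In bulk RNA, fewer cells that express a gene and less RNA per cell cannot be told apart.

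**Figure D1:**
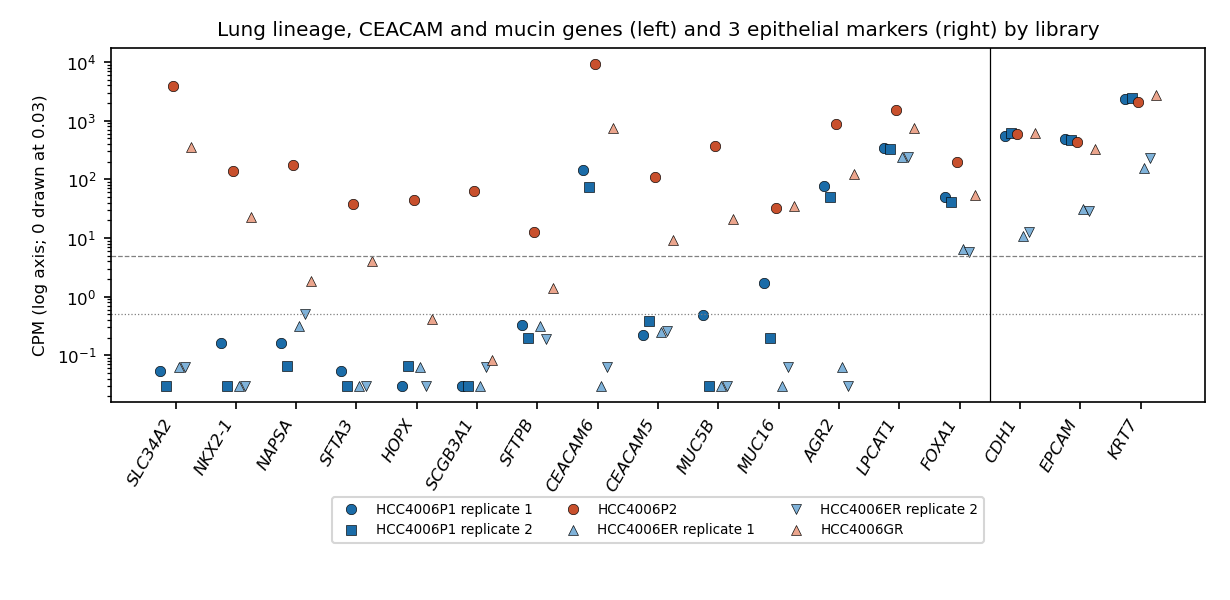
CPM (log axis, 0 drawn at 0.03) of 14 lung lineage, CEACAM and mucin genes and, right of the line, 3 epithelial markers in the 6 HCC4006 libraries, 1 point per library; dashed and dotted lines mark 5 and 0.5 CPM. HCC4006P2 lies above both HCC4006P1 libraries for each of the 14 genes on the left, while CDH1, EPCAM and KRT7 coincide in the 3 parental libraries.

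Promoter sequences are shown for 3 genes that exceeded 100 CPM in HCC4006P2 and had at most 3 counts over both HCC4006P1 libraries, the group in which the stocks lay farthest apart at a high level. They are RefSeq windows from 250 bases before to 50 after a gene start, 5′ to 3′ on the gene's strand, with each CG pair in capitals. The RefSeq starts of NKX2-1 and SLC34A2 lie inside the longest gene models given above. Each window matched hg19 at 1 place, chr14:36989388-36989687 (minus strand) for NKX2-1, chr4:25657223-25657522 (plus) for SLC34A2 and chr6:121756542-121756841 (plus) for GJA1.
NKX2-1: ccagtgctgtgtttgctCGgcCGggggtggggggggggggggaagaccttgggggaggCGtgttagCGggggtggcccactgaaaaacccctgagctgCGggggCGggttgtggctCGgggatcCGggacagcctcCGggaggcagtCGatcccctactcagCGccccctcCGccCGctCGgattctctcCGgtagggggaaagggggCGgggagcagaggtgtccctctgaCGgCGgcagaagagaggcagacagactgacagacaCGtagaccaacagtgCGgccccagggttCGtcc
SLC34A2: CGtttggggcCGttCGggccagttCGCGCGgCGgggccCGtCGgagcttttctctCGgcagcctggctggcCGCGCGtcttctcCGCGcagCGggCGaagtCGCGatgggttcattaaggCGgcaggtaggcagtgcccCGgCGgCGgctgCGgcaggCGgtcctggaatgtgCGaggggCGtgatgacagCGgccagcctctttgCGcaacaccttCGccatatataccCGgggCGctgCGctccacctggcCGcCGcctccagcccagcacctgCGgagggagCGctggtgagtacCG
GJA1: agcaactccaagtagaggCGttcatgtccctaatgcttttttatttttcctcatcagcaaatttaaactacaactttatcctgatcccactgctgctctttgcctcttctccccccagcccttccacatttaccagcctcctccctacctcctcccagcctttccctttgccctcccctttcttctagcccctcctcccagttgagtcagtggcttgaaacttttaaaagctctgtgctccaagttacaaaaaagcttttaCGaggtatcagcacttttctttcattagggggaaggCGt
The 3 windows differ in composition, with 21 CG pairs in NKX2-1, 38 in SLC34A2 and 3 in GJA1. Neither CAAGTG nor CTCAAG, cores of NKX2-1 binding sites, was found in them on either strand. Among the 14 lung lineage genes called lower, the 300-base windows of 3 held CAAGTG (21.4%) and of 5 CTCAAG (35.7%), against 8.94% and 10.4% of the windows of tested genes and 11.5% and 12.4% of all windows. Genes on only in HCC4006P2, counted below, held CAAGTG in 19.35% and CTCAAG in 10.75% of windows. For those on only in HCC4006P1, the opposite side, the shares were 16.67% and 8.33%, so a raised share of CAAGTG was not particular to lung lineage genes. The ends of the motifs can overlap, since the last 4 letters of the second are the first 4 of the first, and a match is a description of the letters only.

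Mucins and CEACAM adhesion proteins moved in the same direction as the lung lineage. Of 16 members tested, 12 were called lower in HCC4006P1 and 0 higher, with a median difference of -5.10 (-3.79 when the 2 genes at 0 in HCC4006P1 are set to their bound, and -1.61 on the scale of log2(CPM + 1), since several members were below 1 CPM). DESeq2 called 7 of them. CEACAM6, an adhesion glycoprotein of the cell surface, had 144 and 73.7 CPM in HCC4006P1 and 9209 CPM in HCC4006P2, and CEACAM5 had 0.219 and 0.387 against 110 CPM. MUC5B, the main gel-forming airway mucin, had 0.494 and 0 against 370 CPM, and its edgeR call (adjusted p = 5.67e-05) was not made by DESeq2 (adjusted p = 0.154). For AGR2, a disulfide isomerase needed for mucin folding, the values were 77.9 and 50.4 against 871 CPM. MUC1 was the exception among abundant mucins, with 395 and 318 against 355 CPM, and was not called. Over the whole list HCC827P had 1295 CPM, against 799 and 517 CPM in HCC4006P1 and 11170 CPM in HCC4006P2. The polymeric immunoglobulin receptor PIGR, of secretory epithelia, had 0.384 and 0.387 against 173 CPM.

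Genes of MHC class II, which present extracellular antigens, were lower in HCC4006P1 as well. Of 12 members tested, 9 were called lower and 0 higher (median -3.07). CD74, the invariant chain, had 147 and 69.3 CPM against 1048 CPM, HLA-DRA 1.87 and 0.839 against 59.4 CPM, and CIITA, the transactivator of the class, 13.7 and 7.55 against 53.1 CPM. The whole list summed to 15.4 CPM in HCC827P, below both HCC4006P1 libraries (176 and 85.5 CPM) and HCC4006P2 (1281 CPM). MHC class I presentation differed little, with 2 of 18 members called higher and 0 lower and a median of 0.07 that turned to -0.10 with library totals alone and was -0.12 on a log2 CPM scale. Of 42 interferon-stimulated genes tested, 14 were called lower and 0 higher (median -0.34). On a log2(CPM + 0.5) scale the median was -0.57, and -0.86 without replicate 1 of HCC4006P1 but -0.20 without replicate 2. The most reduced were IFI27 with 5.43 and 1.74 against 182 CPM and MX2 with 6.58 and 2.06 against 112 CPM. In both genes replicate 1 of HCC4006P1 lay above replicate 2, yet far below HCC4006P2.

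Sterol and fatty acid synthesis stood on the opposite side. Of 25 members tested, 23 were called higher in HCC4006P1 and 1 lower, with a median of 1.55, and all 5 members past the stop were called higher. HMGCS1, an early enzyme of the mevalonate pathway, had 654 and 576 CPM against 137 CPM, and the desaturase SCD 2750 and 2607 against 562 CPM. For FASN, the fatty acid synthase, the values were 1400 and 1498 against 344 CPM. In each of these 3 genes the single HCC4006P2 library lay below both HCC4006P1 libraries. How many of all genes do so was not counted, so this adds no support to the calls.

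Cytosolic ribosomal protein genes were higher in HCC4006P1 for 24 of 27 tested and lower for 0 (median 0.96, or 0.78 with library totals alone). RPLP1, a protein of the ribosomal stalk, had 648 and 733 against 265 CPM. Among the 3 members not called were RPL13 and RPS19, with differences of 0.44 and 0.53. All 7 members past the stop were also called higher. Among cell cycle genes, 17 of 42 were called higher and 2 lower (median 0.51), the higher ones including mitotic genes such as CDC20, the activator of the anaphase-promoting complex (244 and 329 against 78.5 CPM), UBE2C (80.9 and 98.2 against 24.9 CPM) and CCNB1 (275 and 312 against 95.9 CPM). With all 21 libraries in the fit, 0 of these 17 calls were made by edgeR, whereas DESeq2 called 16 members higher. The 2 called lower were CCNE1, the G1 cyclin E (8.17 and 10.6 against 21.02 CPM), and MCM6, a subunit of the replicative helicase (116 and 161 against 292 CPM). Of 11 replication-dependent histone genes 7 were called higher and 0 lower, all at 36.3 CPM or less, with 3 called when all 21 libraries were fitted, and most of their transcripts carry no poly(A) tail.

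**Figure D2:**
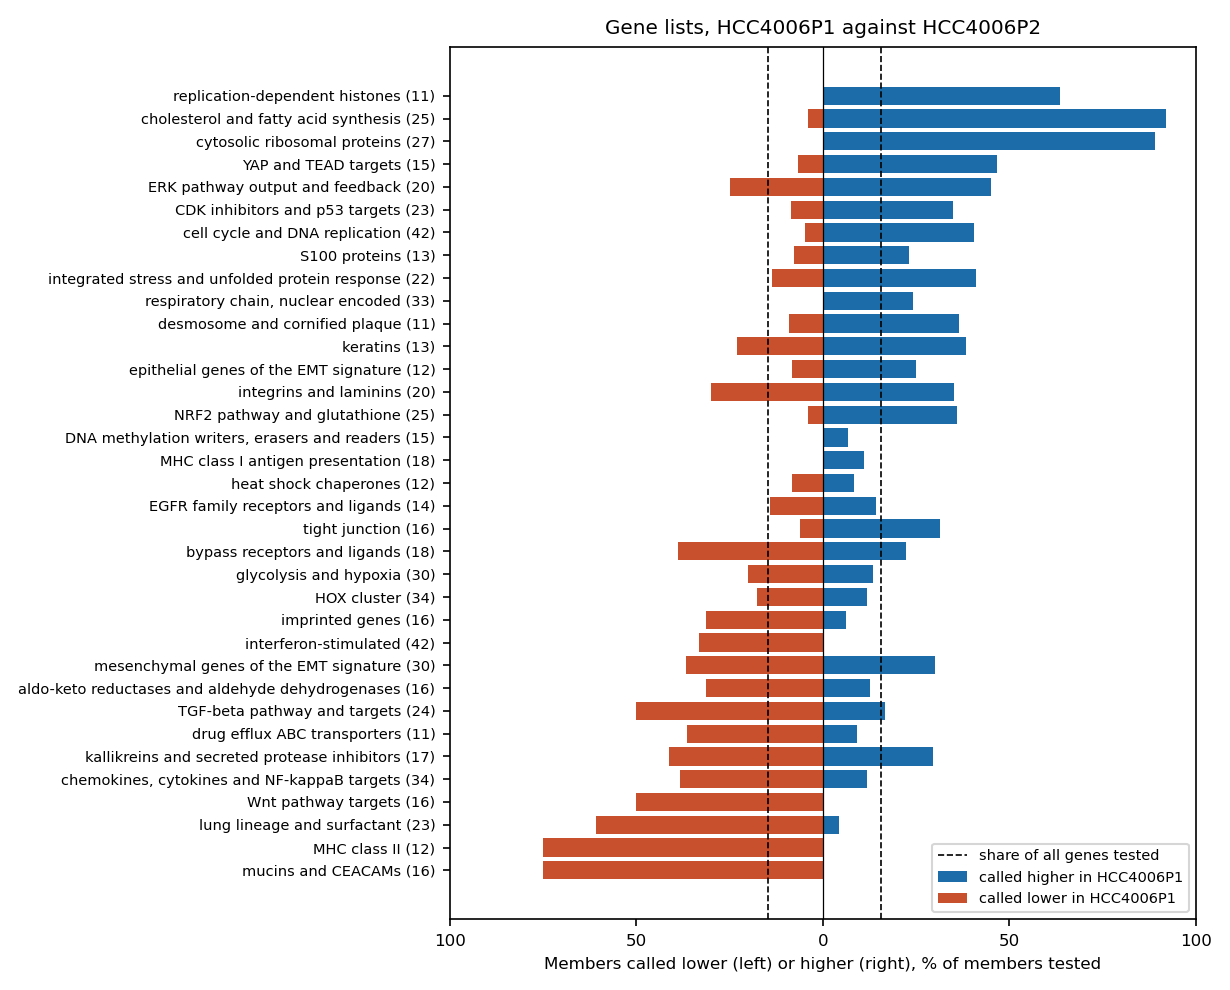
Share of members called lower (left, red) or higher (right, blue) in HCC4006P1, in percent of the members tested, for lists with at least 10 members tested (number in brackets), ordered by median difference; dashed lines give the shares of all genes tested, 14.7% and 15.5%. Mucins and CEACAMs, MHC class II and lung lineage lie at the lower end, and sterol synthesis, ribosomal proteins and histones at the upper end.

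The mesenchymal genes of the EMT signature did not move in a single direction. Of 30 tested before the stop, 9 were called higher in HCC4006P1 and 11 lower (median -0.34). Among those called higher were 4 transcription factors. SNAI1 had 12.6 and 8.90 CPM against 4.11 CPM. TWIST1 had 12.4 and 10.8 CPM against 0.274 CPM, ZEB1 10.4 and 7.68 against 0.731 CPM, and ZEB2 1.92 and 1.10 against 0.183 CPM. The TWIST1 ratio of 42.7 (95% exact counting interval 14.5 to 208) rests on 3 counts in HCC4006P2, and ZEB2 lay under the floor of 3 counts there. With these factors, CDH2 (N-cadherin) had 59.7 and 69.8 against 11.5 CPM and VIM (vimentin) 552 and 752 against 199 CPM, a difference of 1.89 (SE 0.26, edgeR adjusted p = 0.00188). SNAI2, past the stop, was called lower, with 10.97 CPM in replicate 2 against 26.2 CPM. Genes called lower included secreted matrix proteins, although FN1 (fibronectin) was called higher. SPARC, a collagen-binding matrix glycoprotein, had 0.219 and 0.645 against 514 CPM, COL5A2 0.384 and 0.839 against 21.8 CPM, and COL6A2 2.41 and 1.87 against 28.0 CPM. Of the 12 epithelial genes of the signature tested, 3 were called higher and 1 lower. CDH1, as given above, was not called.

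Receptors and ligands that bear on EGFR inhibition went both ways. In the EGFR family list 2 of 14 were called higher and 2 lower (median -0.00), near the shares over all genes, and in the list of bypass receptors and ligands 4 of 18 higher and 7 lower (median -0.06). AXL, a receptor tyrosine kinase, had 565 and 1049 CPM in HCC4006P1 against 60.7 CPM, a difference of 3.93. KIT, the stem cell factor receptor, had 3.07 and 1.68 against 156 CPM, and its ligand KITLG 39.2 and 33.0 against 201 CPM. FGFR2 had 8.83 and 8.77 against 51.9 CPM. The EGFR ligand HBEGF had 30.4 and 35.2 against 6.67 CPM. Of 11 drug efflux transporters tested, 4 were called lower and 1 higher (median -0.53), among the lower ones ABCC5 with 18.1 and 17.7 against 43.9 CPM. Past the stop, the efflux pump ABCB1 had 4.71 CPM in replicate 2 against 0 in HCC4006P2, at least 17.2-fold higher. In the list of ERK output and feedback 9 of 20 were called higher and 5 lower (median 0.52). The feedback gene DUSP6, the ERK phosphatase, had 62.8 and 25.5 against 582 CPM, while the output gene FOSL1 had 92 and 236 against 36.2 CPM. The immediate early genes FOS (193 and 65.0 against 13.2 CPM) and EGR1 (472 and 286 against 76.6 CPM) were higher, although they also differed between the HCC4006P1 replicates. Among YAP and TEAD targets, 7 of 15 were called higher and 1 lower, including CCN2 with 158 and 105 against 22.6 CPM.

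Further signalling lists differed in their lean. In the TGF-β list 12 of 24 were called lower and 4 higher, with BMP7 at 0.384 and 0.323 against 26.2 CPM, while the latent TGF-β binding protein LTBP2 had 346 and 258 against 26.5 CPM. Of 16 Wnt targets 8 were called lower and 0 higher, including RNF43, a brake on Wnt receptors, with 1.43 and 1.42 against 27.5 CPM. The 1 Wnt target tested past the stop was called higher. For integrins and laminins both directions occurred, with 7 higher and 6 lower of 20. ITGB6, the epithelial subunit that activates latent TGF-β together with ITGAV, had 92.3 and 37.2 against 559 CPM, whereas LAMB3 had 891 and 1266 against 232 CPM. In the NRF2 list 9 of 25 were called higher and 1 lower, led by TXNRD1 (thioredoxin reductase) with 1480 and 1931 against 332 CPM. Of the imprinted genes, the maternally expressed MEG3 had 35.3 and 25.4 against 478 CPM.

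Single genes at the extremes were picked by a fixed rule as the 12 with the largest called difference on each side. Those lower in HCC4006P1 were SLC34A2, SCGB3A1 and NKX2-1 of the lung lineage, GRIK3, SLC1A7, NDNF, CNTN1, NTM, CAPN13, CX3CL1, GJA1 and CCSER1. The kainate receptor subunit GRIK3 was at 0 in both HCC4006P1 libraries and at 99.8 CPM in HCC4006P2, at least 557-fold lower. SLC1A7, a glutamate transporter, was at 0 and 0 against 46.2 CPM, and the neuronal adhesion proteins CNTN1 and NTM were at 0 against 24.9 and 24.0 CPM, each at least 134-fold lower. GJA1, the gap junction protein connexin 43 whose promoter is shown above, had 0.0549 and 0.129 against 172 CPM. Its ratio was 1930 (661 to 9380). CX3CL1, a membrane-bound chemokine, had 0.0549 and 0 against 71.1 CPM.

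Those higher in HCC4006P1 were TNFSF18, BCHE, HBE1, HAVCR1, TENM3, MARCHF4, RGS4, NTNG1, ADD2, ANPEP, AADAC and CDH4, and all were expressed at a modest level. HBE1, the embryonic globin chain, had 33.3 and 29.9 CPM against 0.0914 CPM, a ratio of 347 (62.2 to 13700). TENM3, a teneurin adhesion protein, had 18.98 and 17.7 against 0.0914 CPM, and HAVCR1, a surface receptor of injured epithelium, 18.2 and 19.9 against 0.0914 CPM. The adducin subunit ADD2 had 95.7 and 82.4 against 1.00 CPM. ANPEP, a surface aminopeptidase, had 27.4 and 31.9 against 0.366 CPM. TNFSF18 differed between the HCC4006P1 libraries themselves, 28.4 against 5.03 CPM with 0 in HCC4006P2, and its edgeR call (adjusted p = 0.0199) missed the threshold with DESeq2 (adjusted p = 0.0645).

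On/off differences were counted without a test, as at least 5 CPM in each library of the expressing stock and under 0.5 CPM in each library of the other. HCC4006P2 had 140 such genes, 1.2% of the 11636 genes it expressed at 5 CPM, and HCC4006P1 had 33, or 0.31% of 10771. In HCC827P 82 of the 140 were under 0.5 CPM and 30 at 5 CPM or more, and of the 33 these were 20 and 6. By level, the leading genes of HCC4006P2 included SLC34A2, MUC5B, NAPSA, PIGR, GJA1, NPNT, NKX2-1, CEACAM5 and MCTP2, at up to 3833 CPM. The first 10 of HCC4006P1 were HBE1, ANPEP, MAGEA12, MARCHF4, NTNG1, HAVCR1, KLHL4, TENM3, HNRNPA1P33 and BNC1, at 16.96 to 31.6 CPM. Promoter windows were found for 93 of the 140 and 24 of the 33 genes. Fewer than 10 CG pairs were counted in 33 of the 93 (35.5%) and in 16 of the 24 (66.7%), against 16% of the windows of tested genes and 44% of all windows.

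Past the stop of replicate 1, the comparison rests on replicate 2 of HCC4006P1 and its spread on HCC4006ER alone. Of 2603 genes tested, 1455 (55.9%) were called, 670 higher and 785 lower, with the spread of a single close pair of libraries behind the test. With all libraries but replicate 1 in the fit, 347 and 403 were called, and 747 of the 1455 calls were among them in the same direction. Library totals alone gave 424 genes higher and 922 lower. By the rule for extremes, the genes higher in HCC4006P1 were MAGEA12, FAM133A, IGFBP1, CSAG1, KLHL4 and RP1L1. The cancer-testis genes MAGEA12 and CSAG1, neighbours on chromosome X, had 29.7 and 9.94 CPM against 0 in HCC4006P2, at least 108-fold and 36.2-fold higher. IGFBP1, an IGF-binding protein, had 10.2 CPM against 0. Lower were LRCH2, KLHL13, AUTS2, SMO, GABBR2 and SDC2. LRCH2 was at 0 against 53.4 CPM, and SMO, the signal transducer of the Hedgehog pathway, at 0 against 6.85 CPM. SDC2, a heparan sulfate proteoglycan, had 0.194 against 84.2 CPM.

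Differences were also summarised along the chromosomes as medians over expressed protein-coding genes in 10 Mb windows. Of 286 windows with at least 10 such genes, 9 were higher in HCC4006P1 and 37 lower by more than 0.5 in size. Before the stop the window medians had an SD of 0.32 between the stocks and 0.15 between the HCC4006P1 replicates, and 2 of 231 windows exceeded 0.5 between the replicates. Chromosome 20 was higher by 0.86 from 30 to 40 Mb (66 of 81 genes above 0) and by 0.54 from 40 to 50 Mb, but had a median of 0.001 from 50 to 60 Mb and of 0.44 from 60 Mb on. TGM2, a transglutaminase in the former window, had 1703 and 1644 CPM against 110 CPM, and the mitotic spindle gene TPX2 716 and 819 against 221 CPM. Chromosome 6 from 30 to 40 Mb was higher by 0.52 in 106 of 136 genes, and chromosome 9 from 130 to 140 Mb, with replicate 2 alone, by 0.64 over 127 genes. Lower were chromosome 14 from 30 to 40 Mb (-0.69, with 2 of 37 genes above 0), chromosome 16 from 20 to 30 Mb (-0.72, 7 of 61) and chromosome 21 from 30 to 40 Mb (-0.65, 8 of 48). Chromosome 3 was lower by 1.03 from 60 to 70 Mb and by 1.34 from 70 to 80 Mb, where 0 of 10 genes lay above 0 and FOXP1 had 32.8 and 28.3 against 72.3 CPM. DNA copy number was not measured in these files, so whether windows differ in copy number was not tested.

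**Figure D3:**
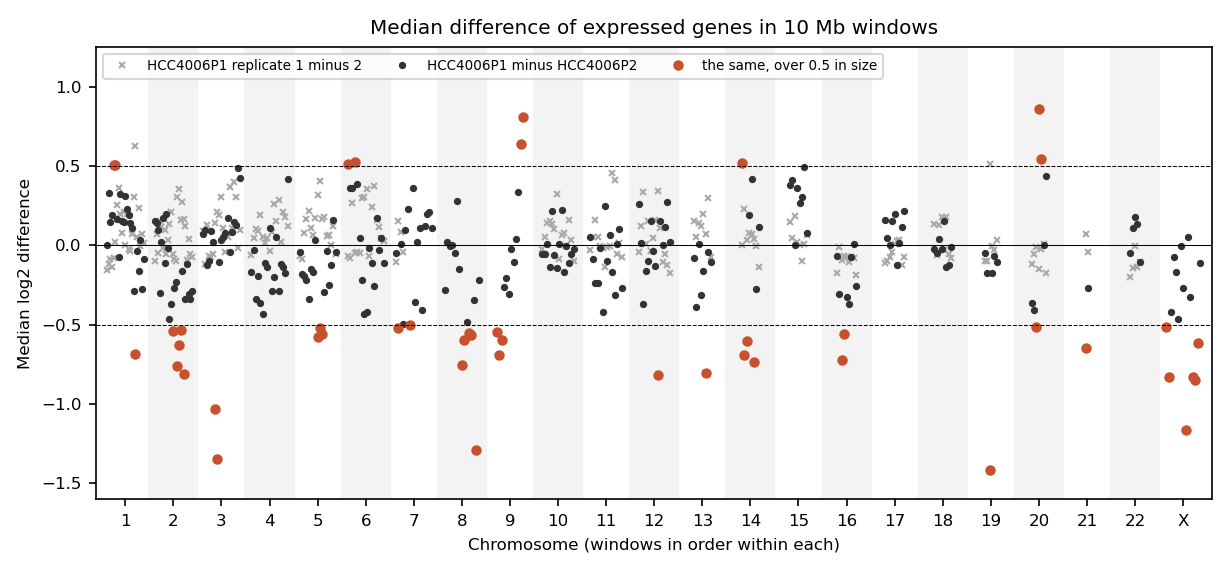
Median log2 difference of expressed protein-coding genes in 10 Mb windows, in order within each chromosome (categories on the x axis), for HCC4006P1 minus HCC4006P2 (dots, red where over 0.5 in size) and for HCC4006P1 replicate 1 minus 2 (grey crosses, before the stop only); dashed lines mark 0.5 and -0.5. Most stock medians lie between these lines, with 46 of 286 outside them.

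The window with the lowest median was chromosome 19 from 20 to 30 Mb, at -1.42 with 1 of 21 genes above 0. Replicate 1 gave -1.24 and replicate 2 -1.72, so the replicates differed there as well. The window holds a cluster of KRAB zinc finger genes, which encode transcriptional repressors of transposable elements. Singled out after its values were seen, this cluster had 24 ZNF genes tested, of which 17 were called lower and 0 higher (median -1.39). Elsewhere on chromosome 19, 16 of 185 ZNF genes were called lower and 6 higher (median -0.13), and on the other chromosomes 10 of 175 lower and 20 higher. ZNF714 had 45.4 and 36.1 against 111 CPM, ZNF90 10.0 and 6.13 against 39.7 CPM, and ZNF681 9.33 and 8.97 against 39.9 CPM. Alignments that were not unique made up 22.4% and 31.9% in HCC4006P1 and 20.4% in HCC4006P2, and their part in the cluster was not tested.

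A much narrower block stood out on chromosome 3 after the values were seen. VGLL3, a transcriptional cofactor of TEAD proteins (86925538 to 87040299 in hg19), had 1797 and 1301 CPM in HCC4006P1 against 35.4 CPM. Its neighbour CHMP2B, a subunit of the ESCRT-III membrane-remodelling complex (87276421 to 87304706), had 1680 and 1611 against 91.2 CPM. The next 3 expressed genes, CGGBP1, ZNF654 and C3orf38, were higher by 2.11, 2.10 and 2.22, up to position 88217879. All 5 were called by edgeR, at adjusted p between 1.93e-05 and 0.000992. CADM2, which lies between GBE1 and VGLL3, was near 0 (1.26 and 0.903 against 0.183 CPM). Its difference of 2.69 went in the same direction but narrowly missed the threshold (edgeR adjusted p = 0.052), so the edge of the block on that side is not settled. Beyond CADM2, GBE1 was lower by 0.94, and on the other side EPHA3 was lower by 1.01. The block was not seen in the erlotinib-resistant derivative of this stock, where VGLL3 had 21.5 and 15.7 CPM and CHMP2B 58.8 and 52.97 CPM, below HCC4006GR with 67.1 and 100 CPM. The stock difference exceeded the derived-line difference by 7.49 (SE 0.38, adjusted p = 4.09e-05) for VGLL3 and by 5.21 (SE 0.24, adjusted p = 2.77e-05) for CHMP2B in edgeR.

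**Figure D4:**
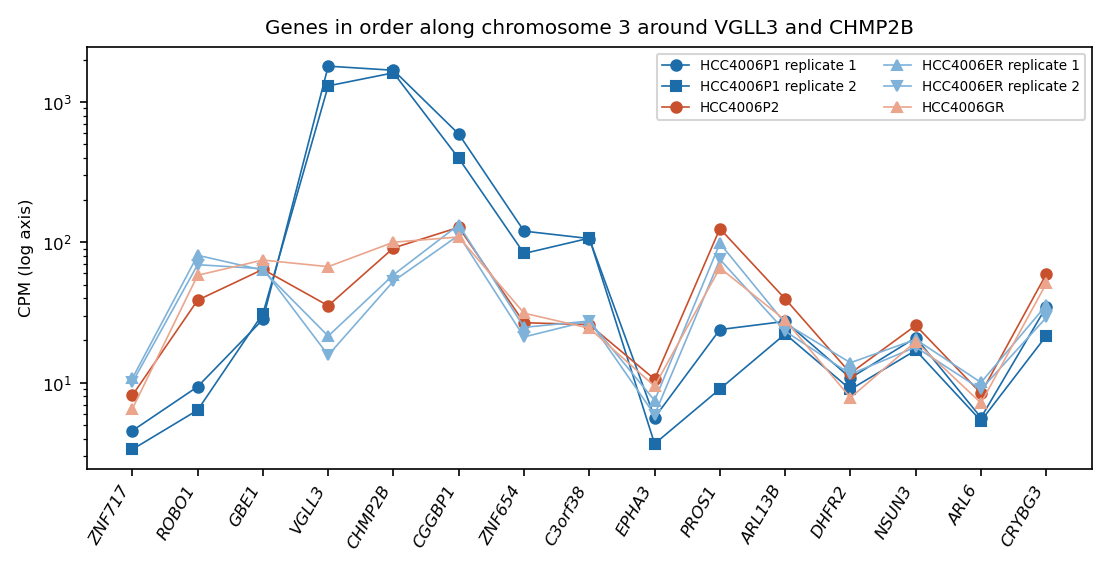
CPM (log axis) of expressed genes in order along chromosome 3 around VGLL3 and CHMP2B in the 6 HCC4006 libraries, 1 line per library. CADM2, under 5 CPM in each library, is not drawn. Only the 2 HCC4006P1 libraries rise, over the 5 genes from VGLL3 to C3orf38, and return to or below the other 4 libraries at GBE1 and EPHA3.

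A second pair of lines with the same ancestry was set beside the stocks. HCC4006ER minus HCC4006GR shares no library with the stock comparison, although both take their spread from the same fit. Between the derived lines 2987 genes were called higher in HCC4006ER (21.0%) and 3149 lower (22.1%). Of the 2213 genes higher in HCC4006P1, 1005 (45.4%) were also higher in HCC4006ER and 324 (14.6%) were lower. Of the 2099 genes lower in HCC4006P1, 969 (46.2%) were also lower in HCC4006ER and 261 (12.4%) were higher. Resistance differs between these lines too, so stock and resistance are not separated in the derived pair. Source and count file format differ in the same way in both pairs, so a shared direction cannot be assigned to the stock. The direct test of a difference between both contrasts called 3386 of 14234 genes.

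Lung lineage and mucin genes kept the order of the stocks. Of the 23 lung lineage genes 13 were called lower in HCC4006ER and 3 higher, and of the 16 mucin and CEACAM genes 13 lower and 0 higher. SLC34A2 had 0.0628 and 0.0637 CPM in HCC4006ER and 361 CPM in HCC4006GR, and NKX2-1 was at 0 in both HCC4006ER libraries and at 22.9 CPM in HCC4006GR. Sterol synthesis was higher in HCC4006ER for 13 of 25 genes and lower for 1. All 27 ribosomal protein genes tested were called higher in HCC4006ER. The MHC class II genes were called lower in 4 of 12, and HLA-DRA, near 0 in HCC4006P1, had 36.6 and 32.2 CPM in HCC4006ER and 56.4 CPM in HCC4006GR. Of the 33 on/off genes of HCC4006P1, 18 were at 5 CPM or more in both HCC4006ER libraries and 7 under 0.5 CPM in both. In HCC4006GR, 10 of the 33 were at 5 CPM or more and 11 under 0.5 CPM. Of the 140 of HCC4006P2, 66 were at 5 CPM or more in HCC4006GR and 19 under 0.5 CPM, while 30 were on in both HCC4006ER libraries and 67 off. The same shares over all genes expressed in a stock were not counted. Among the windows, 37 of 46 had the same sign in the derived pair, against 175 of all 286, and 17 of the 46 also passed 0.5 there. Among those of opposite sign were chromosome 19 from 20 to 30 Mb (0.39 in the derived pair) and chromosome 21 from 30 to 40 Mb (0.33). Chromosome 3 from 60 to 70 Mb (0.21) and from 70 to 80 Mb (0.41) also had the opposite sign.

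**Figure D5:**
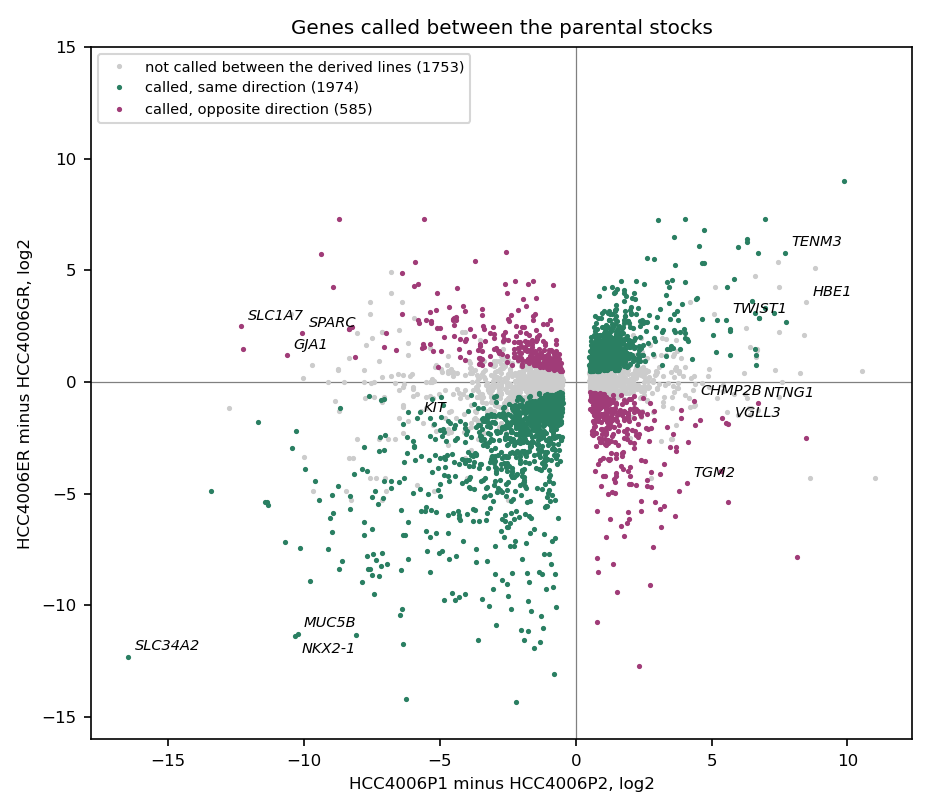
Log2 difference between the stocks (x axis) and between the derived lines (y axis) for the 4312 genes called between the stocks, 1 point per gene, coloured by the call in the derived pair. The 1974 green points share the direction, among them SLC34A2, NKX2-1 and MUC5B at the lower left, and the 585 purple points, such as SPARC and TGM2, have opposite directions.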

How the data were processed

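Messenger RNA of parental and resistant cultures was sequenced. Per the labels, reads were mapped to hg19, with TopHat, Bowtie, SAMtools and HTSeq among the tools named, and the authors deposited unnormalized whole-number counts per Ensembl gene. The strand setting is not given in the sources used here. Of 53515 genes, 45100 (84.3%) were matched by identifier to GENCODE on GRCh37, and the rest, 1.26% to 2.59% of the counts in the 3 libraries, were left out. Reads that HTSeq gave to no gene stayed out of totals.

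Genes were split at the point on chromosome 7 where HCC4006P1 replicate 1 stops. The 36406 genes before it were fitted with edgeR 4.0.16 (R 4.3.3; TMM, filterByExpr, glmQLFit, 1 coefficient per cell line) over 6 HCC4006 libraries, and all placed genes over 5 libraries without replicate 1, of which the 2603 tested past the stop are reported. P-values were adjusted by Benjamini-Hochberg over all genes of a fit. SE is the size of a log2 difference divided by the square root of its F statistic. CPM used totals before the stop. On simulated counts with 200 genes changed 4-fold, 187 of 200 were recovered over the 6 libraries with 2.09% of calls false. When the spread differed from gene to gene, 170 were recovered with 4.49% false. Over the 5 libraries these were 191 with 4.98% and 192 with 6.34%. The simulations changed far fewer genes than were called and gave all libraries of a gene 1 spread. They therefore do not measure the false share among the calls here.

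Named are the 12 genes per direction (6 past the stop) with the largest called difference, at least 5 CPM in the higher stock and over 2-fold outside the other; up to 4 called members per list; the 10 highest on/off genes per stock; up to 3 genes per window; and epithelial markers. Some genes that these rules select are not reported here. The comparison, lists and rules were chosen with earlier results of these data known. Alternatives were DESeq2 1.42.0, other scalings, filters and libraries, and list medians without each HCC4006P1 replicate, added after seeing the data. Intervals are exact 95% intervals and cover counting error only.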

Additional observations from a re-analysis of the deposited data

Results flagged for a closer look

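Among the genes with the largest stock differences, 3 were called in opposite directions between the stocks and between the derived lines, and the difference of the 2 contrasts was itself called with edgeR. SLC1A7 was at 0 in both HCC4006P1 libraries and at 46.2 CPM in HCC4006P2, at least 258-fold lower in HCC4006P1. It was higher in HCC4006ER by 2.51, with 114 and 105 CPM there against 19 CPM in HCC4006GR. The contrasts of SLC1A7 differed by a fitted -14.83 (adjusted p = 2.73e-05 in edgeR), a size that its counts of 0 do not fix. For GJA1, at 613 and 504 CPM in HCC4006ER against 241 CPM in HCC4006GR, the contrasts differed by -11.82 (SE 0.41, adjusted p = 1.8e-05). NTNG1, on in HCC4006P1 and under 0.5 CPM in HCC4006P2, had 4.90 and 3.69 CPM in HCC4006ER and 8.32 CPM in HCC4006GR, and the contrasts differed by 7.67 (SE 0.52, adjusted p = 8.83e-05). In each of the 3 genes a stock near 0 gave rise to a derivative with clear expression, and the fitted sizes depend on the prior count where a stock is at 0.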

How the results depend on the processing

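No paired analysis was possible because HCC4006P2 has 1 library and no replicate number. Calls between the stocks depended most on which replicated line set the spread. Leaving out 1 replicate gave 1440 to 4149 genes higher and 1836 to 3654 lower in HCC4006P1, the highest counts without HCC4006P1 replicate 1 (4149 and 3654) and replicate 2 (3273 and 3307), when the close HCC4006ER pair alone sets the spread. The 3 stock libraries alone gave 1446 higher. Between the derived lines these ranges were 1863 to 4625 higher and 2167 to 4491 lower, and 1271 to 4080 genes were called alike in both contrasts. Past the stop DESeq2 called 327 higher and 366 lower, library totals 424 higher, and all libraries 347 and 403. Windows lower in HCC4006P1 numbered 15 at 20 Mb and 18 with at least 20 genes, and 15 to 40 without 1 replicate (6 to 10 higher), the low ends without replicate 2 and so over only the 231 windows before the stop, where the full count was 22 lower and 7 higher; at 20 Mb 5 were higher. The median of MHC class I genes on the log2 CPM scale turned from -0.12 to 0.13 without HCC4006P1 replicate 2 (-0.29 without replicate 1), and the cause was not tested. On/off counts and lists by sign of median stayed within 1.5 times under each alternative run. No named gene reversed. HCC4006P2 has the shallowest of the 3 libraries, so genes off there are bounded less tightly.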

Other observations

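Further groups were counted. Of 22 genes of the integrated stress and unfolded protein response 9 were called higher in HCC4006P1 and 3 lower, and of 23 CDK inhibitors and p53 targets 8 higher and 2 lower. Past the stop, 3 of 7 members of the former list were called higher and 2 lower. For the latter list 2 of 3 were called lower there and 0 higher. Of 34 chemokine, cytokine and NF-κB genes 13 were called lower and 4 higher. Of 34 HOX genes 4 were called higher and 6 lower, near the shares over all genes, with HOXA2, HOXA3, HOXA5 and HOXA7 called higher in HCC4006P1 and HOXA13, HOXC11, HOXC13, HOXB2, HOXD10 and HOXD11 lower. HOXA3 had 12.1 and 9.29 CPM against 0.914 CPM, and HOXC13 5.10 and 5.55 against 24.7 CPM. The metallothionein list also split, with MT2A at 246 and 235 against 51.2 CPM and MT1F at 2.09 and 1.87 against 6.67 CPM. The imprinted gene NDN had 0.0549 and 0 against 7.68 CPM. HMGA1, a chromatin protein of the window on chromosome 6, had 2235 and 2927 against 674 CPM.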
